A study of Mus musculus with 8 samples.

Results

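The genes described here are 7 peptide hormones of enteroendocrine cells (Gcg, Pyy, Insl5, Nts, Cck, Sst, and Sct), the granule proteins Chga and Chgb, and Tph1, an enzyme of serotonin synthesis. Members were all probe sets annotated to exactly 1 gene symbol that is one of these names. This rule found 10 probe sets, 1 for each of the 10 genes, among 34945 probe sets of 1 gene that cover 18193 genes and 45037 probe sets in all without the Affymetrix controls. The 8 Affymetrix arrays came from 4 BTΔMAFF and 4 BTWT mice, 1 array for each mouse. BTΔMAFF mice were colonized with a mutant of Bacteroides thetaiotaomicron (B. theta) without the MAFF locus, and BTWT mice with the wild-type strain, after both groups of male SPF C57BL/6 mice had received metronidazole and ciprofloxacin (SPF-Abx mice). Colonization took place at 8 wk of age and sampling at 12 wk, 4 wk apart. Living cells positive for EpCAM and negative for the leukocyte marker CD45 were sorted from a suspension of colonic epithelium, and 1 deletion strain stands for the loss of MAFF.

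Enteroendocrine cells are rare secretory cells scattered through the gut epithelium. They store peptide hormones or serotonin in dense-core granules, together with chromogranins, and release them toward nerves and blood vessels when receptors on the cell sense nutrients, bacterial products, or short-chain fatty acids. In the colon, L cells make the peptides cut from proglucagon together with PYY and INSL5, enterochromaffin cells make serotonin, and D cells make somatostatin. CCK and secretin are known mainly as hormones of the small intestine.

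The deposited values are log2 values that the authors centred for each probe set, so that its median over the 8 arrays is 0. A value thus says how a mouse stood against the others and not how much transcript there was, so neither the order of the genes by expression nor a detection call can be given, and the presence of defining markers of the sorted cells could not be checked as a level. A difference is BTΔMAFF minus BTWT throughout, so a negative one means a lower value in BTΔMAFF mice. In sorted cells measured in bulk, fewer cells of a type and less RNA per cell cannot be told apart. On the first principal component of all probe sets (29.4% of the variance), BTΔMAFF replicate 4 and BTWT replicate 2 lay far from the rest. As a sign of RNA quality, the Gapdh controls of the array gave a 3-prime minus 5-prime difference between -0.18 and 0.17 in BTΔMAFF mice and between -0.25 and 0.02 in BTWT mice, with BTWT replicate 2 the lowest. These control probe sets were centred too, so the difference compares the mice with one another and is no absolute 3-prime to 5-prime ratio. The part of RNA quality in the values below was not tested. Epcam, which encodes the surface protein used in the sort, had a log2 difference of -0.10 (SE 0.23), and its other probe set one of 0.04.

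Of the 10 genes, none passed an adjusted p of 0.05 in limma (0.0% of all 45037 probe sets did), with adjusted p between 0.828 and 0.873. One gene, Gcg, had an unadjusted p under 0.05, as did 5.1% of all probe sets. It was also the 1 gene with a difference of more than 2-fold at that p, a criterion met by 0.262% of all probe sets with lower values in BTΔMAFF mice and by 0.286% with higher ones. None of the 10 separated the groups without overlap, against 2.83% of all probe sets. The log2 difference was negative for 7 genes and positive for 3, with a median of -0.15. Over the 18193 genes, 12162 differences were negative and the median was -0.02. All 10 genes varied more between mice than the median probe set, whose SD over the 8 arrays was 0.13.

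**Figure D1:**
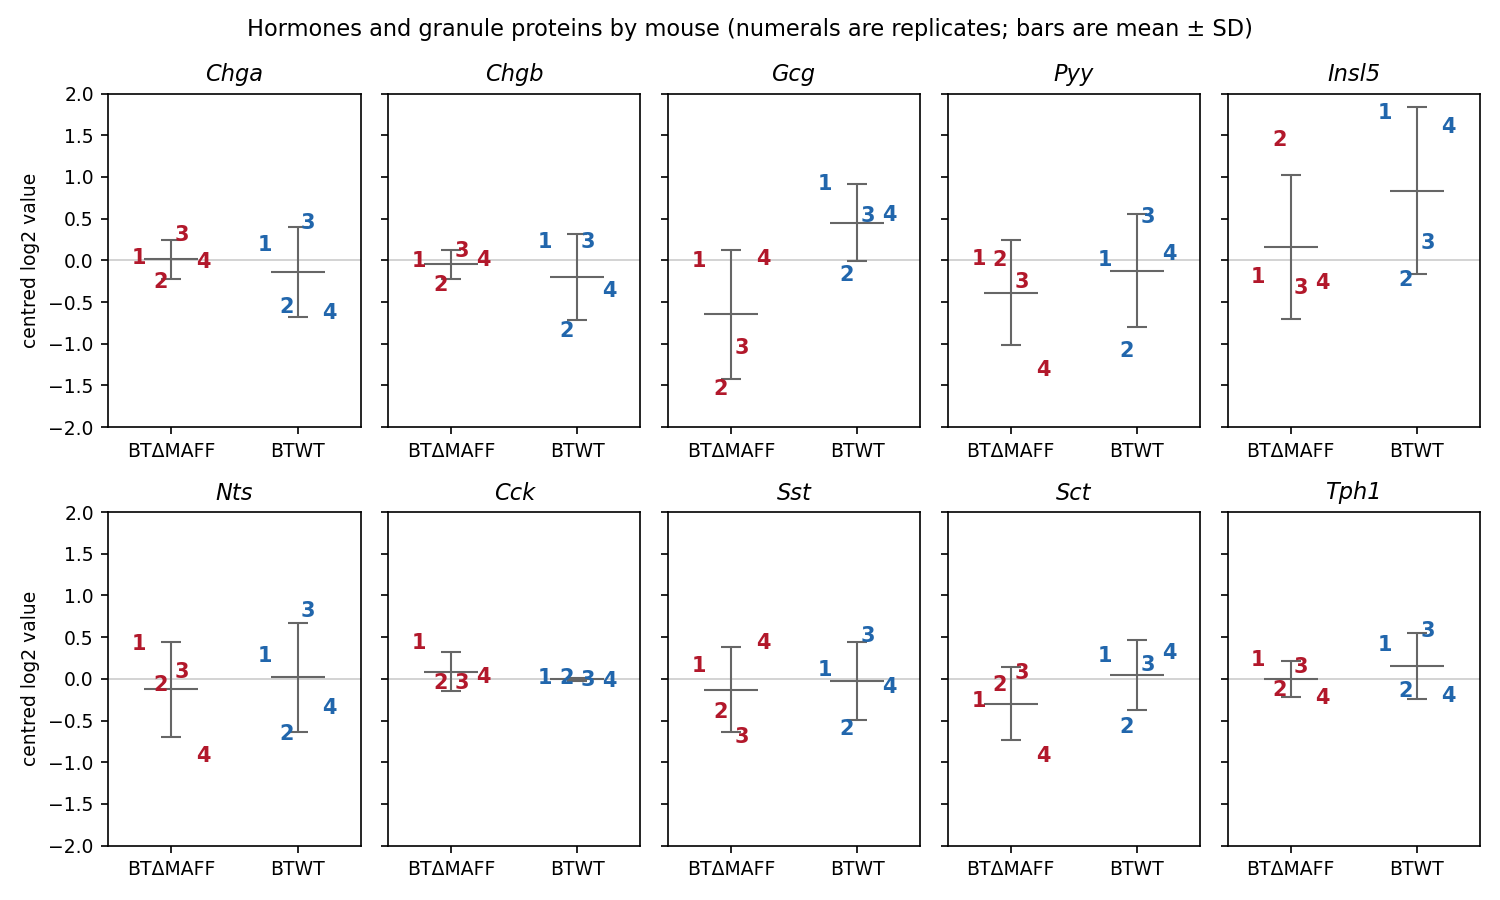
Centred log2 values (vertical axes) of the 10 genes in 4 BTΔMAFF mice (red numerals, left) and 4 BTWT mice (blue numerals, right), where each numeral is the replicate number and the bars are the mean ± SD. For every gene, the values of the groups overlap, and for Gcg, BTΔMAFF replicates 2 and 3 lie below all BTWT mice.

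Chga encodes chromogranin A and Chgb chromogranin B, acidic proteins that help form dense-core granules in endocrine cells of most kinds and so mark enteroendocrine cells as a class. Chga (probe set 1418149_at) had centred log2 values of 0.03, -0.26, 0.31, and -0.03 in BTΔMAFF mice, against 0.18, -0.56, 0.45, and -0.63 in BTWT mice. The BTWT mice held both the highest and the lowest values, and all 4 BTΔMAFF values fell between them. The log2 difference was 0.15 (SE 0.27, 95% confidence interval -0.49 to 0.79, limma adjusted p = 0.828). Chgb (1415885_at) had values of -0.004, -0.30, 0.11, and 0.004 in BTΔMAFF mice, against 0.22, -0.85, 0.22, and -0.37 in BTWT mice. Here too the BTWT mice spread more widely, with replicates 1 and 3 high and replicates 2 and 4 low, and the difference was 0.15 (SE 0.25, interval -0.45 to 0.75, adjusted p = 0.828). Neither sign was stable: that of Chga turned to -0.01 without BTWT replicate 4, and that of Chgb to -0.07 without BTWT replicate 2. The intervals do not reach a 2-fold change in either direction.

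Over the 8 mice, the 2 granins followed each other closely, with r = 0.89, and r = 0.95 without the 2 distant arrays. Because they varied together, the 100 bases before their RefSeq start sites (GRCm38.p6) are shown, with the strand of the gene read 5′ to 3′. The stretches shown are chr12:102554841-102554940 for Chga and chr2:132781542-132781641 for Chgb, both on the plus strand. Capitals mark TGACGTNA, the form of the cyclic AMP response element searched for on both strands.
Chga: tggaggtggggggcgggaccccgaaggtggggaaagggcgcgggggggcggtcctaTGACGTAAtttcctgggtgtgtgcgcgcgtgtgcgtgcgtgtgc
Chgb: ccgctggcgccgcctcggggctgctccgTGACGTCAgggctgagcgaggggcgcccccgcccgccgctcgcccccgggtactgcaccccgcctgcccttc
The first base of the match lies 44 bases before the start of Chga and 72 bases before that of Chgb. In the 250 bases before the start, the letters were found in 3 of the 10 genes (Chga, Chgb, and Sst) and in 2.65% of 27025 promoters. A match describes the sequence and is not evidence of a bound site.

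The gene with the pattern most like that of Chga among 18183 others was Snap25, a SNARE protein that fuses secretory vesicles with the cell membrane. Snap25 had values of -0.08, -0.40, 0.43, and 0.08 in BTΔMAFF mice, against 0.28, -1.46, 0.53, and -1.24 in BTWT mice. Its correlation with Chga was r = 0.97 over 8 mice, and r = 0.99 without the 2 distant arrays. Next in order were Cacna2d2, an auxiliary subunit of voltage-gated calcium channels (r = 0.96), Gm9776 (r = 0.94), Nudt9 (r = 0.93), and Mphosph9 (r = 0.93). These genes were picked for the size of r, so the values are a description, and all points share the same 8 arrays. Snap25 has 1 other probe set, with a log2 difference of -0.35 against 0.48 for the one used here.

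Gcg (1425952_a_at) encodes proglucagon, from which L cells cut the glucagon-like peptides that act on insulin secretion, appetite, and growth of the epithelium. Its centred log2 values were -0.01, -1.54, -1.05, and 0.01 in BTΔMAFF mice, against 0.92, -0.18, 0.53, and 0.54 in BTWT mice. The 2 lowest mice were both BTΔMAFF and the 3 highest all BTWT, while BTWT replicate 2 lay below BTΔMAFF replicates 1 and 4. The mean was -0.65 ± 0.78 in BTΔMAFF mice and 0.45 ± 0.46 in BTWT mice (SD, n = 4 each). The log2 difference of -1.10 (SE 0.42, interval -2.09 to -0.12) is a 2.15-fold higher level in BTWT mice, with an unadjusted p = 0.0332 and an adjusted p = 0.828 in limma. The study lists this probe set among those higher in BTWT on the same arrays, so its direction here is not independent evidence. Of the 8 fits that each left out 1 array, 3 kept an unadjusted p under 0.05, and those without BTΔMAFF replicate 2 or 3 or without BTWT replicate 1, 3, or 4 did not, with differences between -1.08 and -0.80. In the 3 that kept it, the difference lay between -1.32 and -1.31. With the methods' test, Gcg did not reach an unadjusted p under 0.05. With array weights the difference was -1.73 (adjusted p = 0.0771). Leaving out the 2 distant arrays, BTΔMAFF replicate 4 and BTWT replicate 2, gave -1.53 (adjusted p = 0.359).

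As the gene with the largest difference, Gcg is shown with the 150 bases before its start, chr2:62483654-62483803 on the minus strand of GRCm38.p6, from RefSeq. Capitals mark CANATG or its reverse complement, letters found within the E boxes to which basic helix-loop-helix factors such as NEUROD1 bind.
Gcg: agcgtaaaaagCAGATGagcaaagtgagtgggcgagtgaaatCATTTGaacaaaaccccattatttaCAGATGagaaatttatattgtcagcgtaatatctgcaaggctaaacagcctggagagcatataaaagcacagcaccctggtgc
The 3 matches begin 139, 108, and 83 bases before the start. These short letters are common: within 250 bases before the start they occur in 5 of the 10 genes (Gcg, Cck, Sst, Insl5, and Sct) and in 35.0% of 27025 promoters. The genes most like Gcg over the 8 mice were Rbms1, an RNA-binding protein (r = 0.97), Cttnbp2nl (r = 0.97), the tetraspanin Cd9 (r = 0.95), the hydroxyacid oxidase Hao2 (r = 0.95), and Abhd14a (r = 0.95). None of them is a hormone or granule gene of the lists used here. Rbms1 had values of 0.05, -0.68, -0.61, and -0.05 in BTΔMAFF mice, against 0.70, -0.24, 0.23, and 0.36 in BTWT mice, with the same 2 BTΔMAFF mice lowest.

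Pyy and Insl5 are the other hormones of colonic L cells. Pyy (1424865_at) encodes peptide YY, which slows transit and curbs appetite, and had values of 0.02, 0.00, -0.26, and -1.31 in BTΔMAFF mice, against 0.00, -1.09, 0.52, and 0.08 in BTWT mice. A single mouse was low in each group, BTΔMAFF replicate 4 and BTWT replicate 2, the same arrays that lay apart over all probe sets. The log2 difference was -0.26 (SE 0.43, interval -1.28 to 0.75, adjusted p = 0.828), and 0.04 without BTΔMAFF replicate 4. Insl5 (1449493_at) encodes insulin-like peptide 5, the ligand of RXFP4 made mainly by L cells of the distal colon. Its values were -0.21, 1.44, -0.33, and -0.27 in BTΔMAFF mice, against 1.77, -0.23, 0.21, and 1.60 in BTWT mice. Insl5 thus had high mice in both groups, BTΔMAFF replicate 2 and BTWT replicates 1 and 4, and a range of 4.27-fold between the highest and lowest mouse. The difference of -0.68 (SE 0.61, interval -2.12 to 0.76, adjusted p = 0.828) was -1.10 without BTΔMAFF replicate 2, -0.37 without BTWT replicate 1, and 0.19 with array weights.

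By Pearson's r over all 8 mice, the 3 L-cell hormones did not follow one another closely. The correlation over 8 mice was r = 0.21 for Gcg with Insl5, r = 0.15 for Gcg with Pyy, and r = 0.47 for Pyy with Insl5. BTΔMAFF replicate 2 shows this most plainly, since it had the lowest Gcg value of all mice, a Pyy value at the median, and an Insl5 value that only BTWT replicates 1 and 4 exceeded. With the group means removed, r was -0.10 for Gcg with Insl5, -0.01 for Gcg with Pyy, and 0.43 for Pyy with Insl5. By rank the likeness was closer, with Spearman's rho of 0.57, 0.31, and 0.57 for these pairs in the same order. Without the 2 distant arrays, r was 0.25, 0.50, and 0.03.

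Nts (1422860_at) encodes neurotensin, a peptide of enteroendocrine cells of the lower gut that acts on motility and fat absorption. Its values were 0.42, -0.08, 0.08, and -0.93 in BTΔMAFF mice, against 0.27, -0.67, 0.81, and -0.34 in BTWT mice. The lowest mouse was BTΔMAFF replicate 4 and the highest BTWT replicate 3. The log2 difference was -0.15 (SE 0.40, interval -1.10 to 0.80, adjusted p = 0.862), and it was 0.12 without either of these mice.
Sct (1418805_at) encodes secretin, the hormone that calls forth bicarbonate from the pancreas. Its values were -0.27, -0.07, 0.07, and -0.92 in BTΔMAFF mice, against 0.27, -0.58, 0.17, and 0.31 in BTWT mice. The 3 highest mice were BTWT, but the groups overlapped through BTWT replicate 2. The difference was -0.34 (SE 0.28, interval -1.001 to 0.32, adjusted p = 0.828), with a range of -0.55 without BTWT replicate 2 to -0.13 without BTΔMAFF replicate 4. Sct passed the unadjusted threshold, but not the adjusted one, without the 2 distant arrays (difference -0.34, SE 0.0998, unadjusted p = 0.0208, limma adjusted p = 0.359) and with array weights (difference -0.29, unadjusted p = 0.0463, adjusted p = 0.194).

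Sst (1417954_at) encodes somatostatin, made by D cells as a brake on other endocrine cells. Its values were 0.15, -0.40, -0.69, and 0.44 in BTΔMAFF mice, against 0.10, -0.61, 0.52, and -0.10 in BTWT mice. High and low mice occurred in both groups, the difference was -0.11 (SE 0.32, interval -0.86 to 0.65, adjusted p = 0.873), and its sign turned without BTΔMAFF replicate 3 (0.08) or BTWT replicate 3 (0.07). With array weights it was -0.63 in limma (unadjusted p = 0.0256, adjusted p = 0.183). Somatostatin is the textbook target of the cyclic AMP response element, and the 100 bases before its start, chr16:23890845-23890944 on the minus strand (RefSeq, GRCm38.p6), hold the same letters as Chgb 48 bases before the start, again in capitals.
Sst: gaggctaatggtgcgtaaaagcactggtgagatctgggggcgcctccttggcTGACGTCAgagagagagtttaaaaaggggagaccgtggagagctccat
Among the other hormones, Sst was most like Gcg, with r = 0.64, and its correlation with Chgb was r = 0.56 and with Chga r = 0.40.

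Cck (1419473_a_at) encodes cholecystokinin, the hormone of small-intestinal I cells that contracts the gall bladder. It was the least variable of the 10 genes, with values of 0.43, -0.05, -0.06, and 0.03 in BTΔMAFF mice, against 0.01, 0.01, -0.01, and -0.03 in BTWT mice. The 7 mice other than BTΔMAFF replicate 1 lay within 0.06 of the median. The difference of 0.09 (SE 0.11, interval -0.17 to 0.35, adjusted p = 0.828) came with 1 high mouse, and without it was -0.02.

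Tph1 (1419524_at) encodes tryptophan hydroxylase, the rate-limiting enzyme of serotonin synthesis in enterochromaffin cells. Its values were 0.23, -0.14, 0.14, and -0.23 in BTΔMAFF mice, against 0.40, -0.14, 0.58, and -0.21 in BTWT mice. BTWT replicates 1 and 3 were the highest of all mice, and the other 2 BTWT mice lay among the lowest 4. The log2 difference was -0.16 (SE 0.21, interval -0.65 to 0.34, adjusted p = 0.828). It stayed negative under every alternative, from -0.44 with array weights (limma unadjusted p = 0.0455, adjusted p = 0.194) to -0.02 without BTWT replicate 3. The genes most like Tph1 over the 8 mice were Smim38 (r = 0.96), Ociad1 (r = 0.95), Tnfaip8 (r = 0.95), Slc2a10, a member of the facilitative glucose transporter family (r = 0.94), and Zfp839 (r = 0.94).

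**Figure D2:**
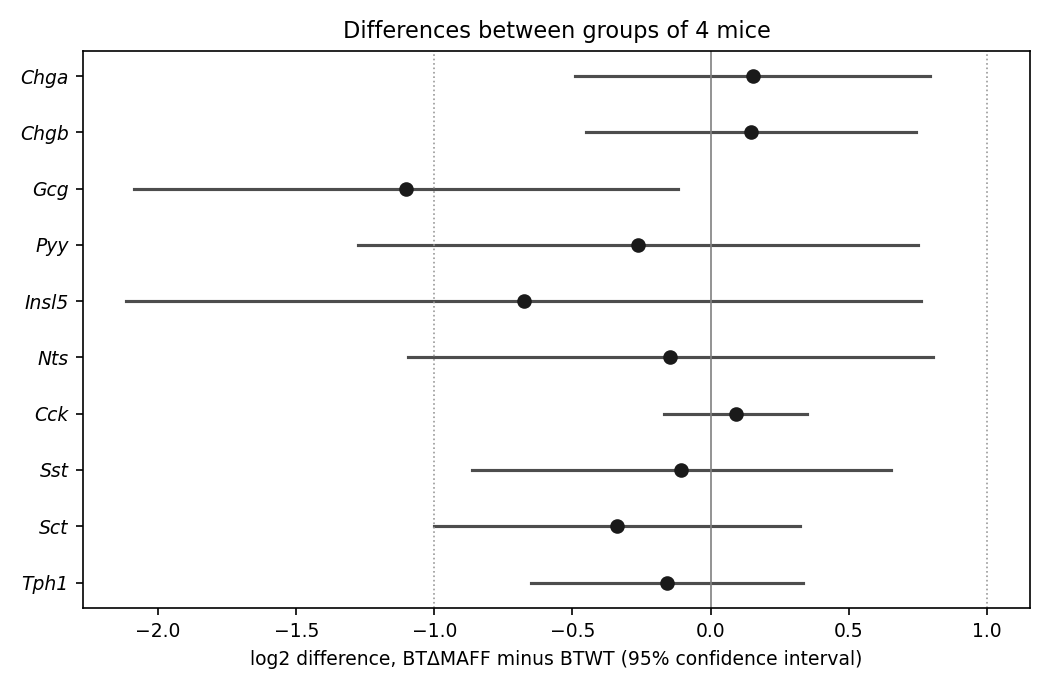
Log2 difference between BTΔMAFF and BTWT mice (dots, horizontal axis) with its 95% confidence interval (lines) from limma for each of the 10 genes, with dotted lines at a 2-fold change in either direction. The interval of Gcg, from -2.09 to -0.12, is the 1 interval that lies on one side of 0, and that of Cck, from -0.17 to 0.35, is the narrowest.

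Much of the variation ran between mice of the same group. BTWT replicates 1 and 3 had values above 0 for 9 of the 10 genes, with means over the genes of 0.41 and 0.40. BTWT replicate 2 had values below 0 for 9 of the 10, with a mean of -0.49. BTWT replicate 3 alone was the highest mouse for 6 genes. In BTΔMAFF mice the means over the genes were 0.08, -0.14, -0.17, and -0.32, with replicate 4 the lowest of all mice for 4 genes and replicate 3 for 3. BTΔMAFF replicate 1, with 6 genes above 0, lay close to BTWT replicate 4, with a mean of 0.08 and 4 genes above 0. The highest and the lowest mean of the 8 mice were thus both found among BTWT mice.

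Of the 45 pairs of genes, 40 had a positive correlation over the 8 mice and 14 had one above 0.5, with a median r of 0.26. The points share arrays, amplification, and depth of signal, so the values are a description. The strongest pairs were Nts with Tph1 (r = 0.90), Chga with Chgb (r = 0.89), Pyy with Nts (r = 0.88), and Pyy with Sct (r = 0.87). Chga and Tph1 had r = 0.80. Removing the group means gave a median r of 0.35. Without the 2 distant arrays, Nts with Tph1 (r = 0.94) and Chga with Chgb (r = 0.95) were as close, whereas Pyy with Sct had r = 0.21 and Nts with Sct r = -0.20 in place of 0.68. Cck and Insl5 had the lowest correlation, r = -0.33.

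**Figure D3:**
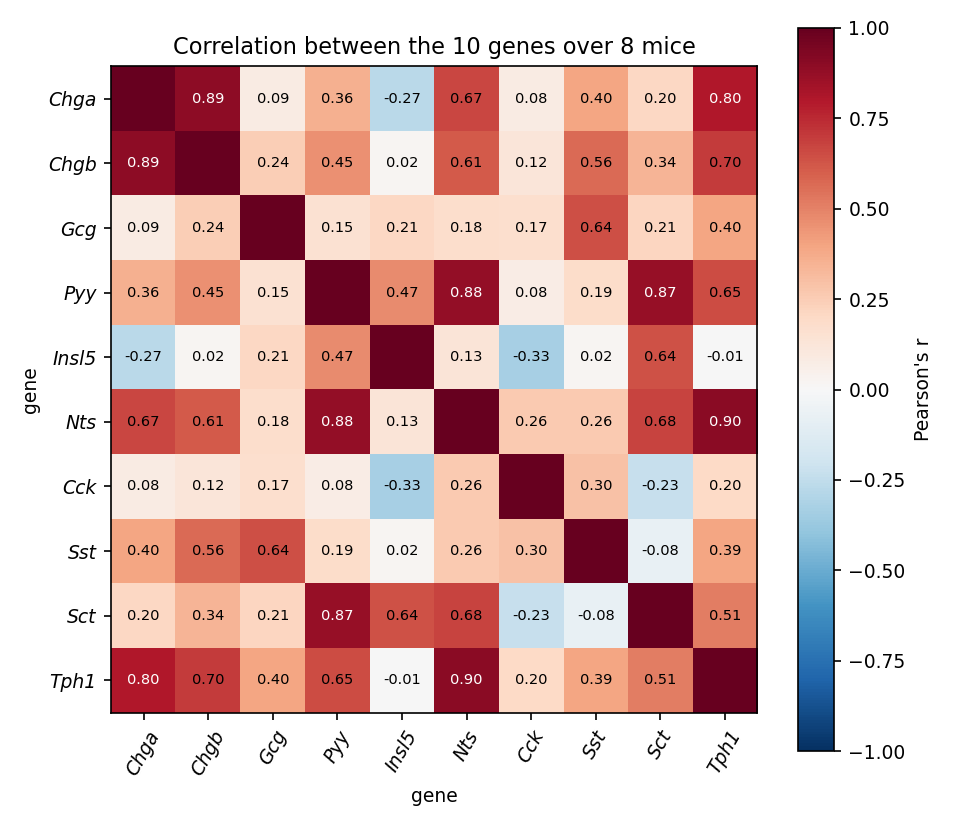
Pearson's r between each pair of the 10 genes over 8 mice, from blue (negative) to red (positive), with the value printed in each square. A block of Chga, Chgb, Nts, and Tph1 has values from 0.61 to 0.90, while Gcg, Cck, and Insl5 have mostly low values with the other genes.

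Other genes of the enteroendocrine program were described by list, with a gene with several probe sets represented by the one that varied most over all mice. Over all 18193 genes, 2.35% had lower and 3.37% higher values in BTΔMAFF mice at an unadjusted p under 0.05, and none of any list passed the adjusted threshold. Of 21 measured transcription factors of enteroendocrine differentiation, none passed the unadjusted threshold. The difference was negative for 19 of these 21, against 12162 of all 18193 genes, and 6 of the 21 had an SD under 0.1. The median was only -0.04, against -0.02 for all genes. Nkx2-2, a homeodomain factor, had values of 0.74, -0.02, -0.22, and 0.01 in BTΔMAFF mice, against 1.11, -0.03, 2.20, and -0.01 in BTWT mice (log2 difference -0.69, SE 0.53). Insm1, a zinc finger factor of endocrine precursors, had values of -0.08, -0.32, -0.29, and 0.18 in BTΔMAFF mice, against 0.86, 0.08, 1.33, and -0.28 in BTWT mice (difference -0.62, SE 0.35, its other probe set -0.24). Both were highest in BTWT replicates 1 and 3, the mice that were also high for most of the hormones. Neurod1, which acts below Neurog3 in endocrine differentiation, was highest in the same 2 mice, with 0.81 and 0.53. It had a difference of -0.36 (SE 0.19), and its other probe set one of -0.04. Neurog3 itself, the factor that starts endocrine commitment, varied by no more than 0.03 from the median in any mouse, with a difference of -0.01 (SE 0.02). Its SD over all mice was 0.02, against 0.13 for the median probe set. Centred values give no level, so an unchanged transcript cannot be told here from one too low to detect.

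Of 31 measured genes of prohormone processing and dense-core granules, 2 had higher and none lower values in BTΔMAFF mice at an unadjusted p under 0.05. They were Vamp2, a vesicle SNARE (log2 difference 0.53, SE 0.16, adjusted p = 0.722), and Syt7, a calcium sensor of exocytosis (0.57, SE 0.22, adjusted p = 0.828), both of which act in many secretory cells. Other probe sets gave 0.22 for Vamp2 and 0.39, 0.24, and 0.66 for Syt7. Pcsk1, the convertase that cuts proglucagon in L cells, had values of 0.05, -0.31, -0.22, and 0.0017 in BTΔMAFF mice, against 0.12, -0.0017, -0.04, and 0.74 in BTWT mice. Its difference was -0.32 (SE 0.19, adjusted p = 0.828), with the same 2 BTΔMAFF mice lowest as for Gcg. Slc18a1, which loads serotonin into the granules of enterochromaffin cells, had values of 0.24, 0.42, 0.04, and 0.02 in BTΔMAFF mice, against -0.12, -1.55, -0.09, and -0.02 in BTWT mice. These groups did not overlap, but BTWT replicate 2 alone lay far below the rest. The difference was 0.62 (SE 0.35, adjusted p = 0.828), and the other 2 probe sets of the gene had differences of -0.03 and -0.02. The granins Scg2 and Scg3 had differences of -0.03 (SE 0.03) and 0.03 (SE 0.04). Their SDs over all mice, 0.03 and 0.06, were also under the median of 0.13.

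**Figure D4:**
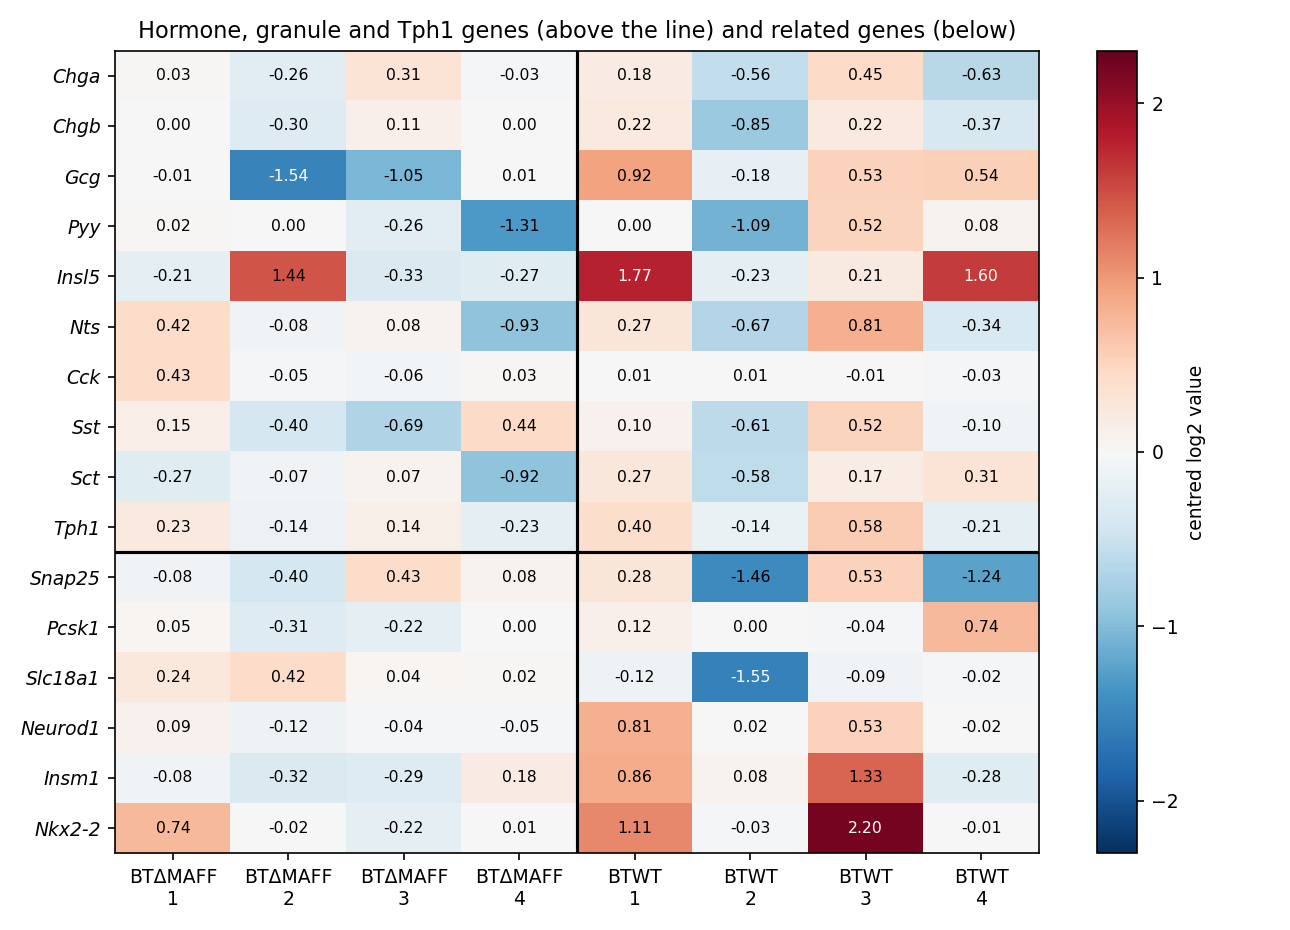
Centred log2 values (colour and printed numbers) of the 10 genes above the horizontal line and 6 related genes below it, in BTΔMAFF mice (left of the vertical line) and BTWT mice (right), by replicate. BTWT replicates 1 and 3 are high for Nkx2-2, Insm1, and Neurod1 as for most of the 10 genes, and Snap25 follows Chga with low values in BTWT replicates 2 and 4.

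Among 17 measured genes of serotonin synthesis, transport, and breakdown besides Tph1, none passed the unadjusted threshold in either direction, with a median difference of -0.05. Ddc, which makes serotonin from the product of tryptophan hydroxylase, had a difference of -0.07 (SE 0.14). Of 14 other gut peptides, Adm, which encodes adrenomedullin, passed the unadjusted threshold (log2 difference -0.55, SE 0.22, adjusted p = 0.828), and its other probe set had a difference of 0.09. Of 20 measured receptors and transporters through which enteroendocrine cells sense their surroundings, 3 passed the unadjusted threshold with lower values in BTΔMAFF mice and 1 with higher ones. The differences of this list were negative for 14 genes and positive for 6. Ffar2, the fatty acid receptor that L cells and leukocytes carry, had values of -0.29, 0.21, -0.21, and -1.09 in BTΔMAFF mice, against 2.23, -0.28, 1.32, and 1.64 in BTWT mice (difference -1.57, SE 0.56, adjusted p = 0.828). As for Gcg, the 3 highest mice were BTWT replicates 1, 3, and 4 and BTWT replicate 2 was low. Tlr4, the receptor of lipopolysaccharide, and Trpm5, a channel of tuft cells, had differences of -1.05 (SE 0.22) and -0.46 (SE 0.18), and Slc5a1, the sodium-glucose transporter, one of 0.66 (SE 0.18). Other probe sets gave -0.44 for Ffar2, -0.37, -0.64, and -0.02 for Tlr4, -0.06 and -0.02 for Trpm5, and 0.54 for Slc5a1. Of 20 measured receptors for the hormones and serotonin, none passed, and 15 had an SD under 0.1 over all mice.

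Markers of other cells and of position along the colon were set beside these values, and their part in them was not tested. None of 15 enteric neuron and glia markers, which share granule genes with enteroendocrine cells, passed the unadjusted threshold, and 14 of them had an SD under 0.1, Snap25 being the exception. The mean of this list lay between -0.05 and 0.07 in BTΔMAFF mice and between -0.09 and 0.05 in BTWT mice. None of 11 leukocyte markers passed, and 9 of them had an SD under 0.1. Their list means lay between -0.04 and 0.14 in BTΔMAFF mice and between -0.04 and 0.28 in BTWT mice. The mean of 0.28 was in BTWT replicate 3, where Laptm5 stood at 3.07. The mean of 0.14 was in BTΔMAFF replicate 3, where Csf1r stood at 1.75. Other probe sets of Laptm5 had SDs between 0.02 and 0.04, and those of Csf1r 0.02 and 0.28. Of 13 stromal and endothelial markers, Pdgfrb passed with lower values in BTΔMAFF mice (log2 difference -1.16, SE 0.33, its other probe set 0.0004). The differences of this list were negative for 7 genes and positive for 6. The matrix genes Col3a1, Dcn, and Col1a1 had differences of 1.14 (SE 0.49), 1.03 (SE 0.68), and 0.77 (SE 0.45), which did not pass, and their other probe sets lay between -0.02 and 0.01. The list means lay between -0.01 and 0.54 in BTΔMAFF mice and between -0.30 and 0.25 in BTWT mice. Of 10 tuft cell markers, Trpm5 passed. Of 12 goblet cell markers, 4 passed with higher values in BTΔMAFF mice, with no overlap, and 1 passed with lower ones. Goblet list means ran from 0.09 to 1.13 in BTΔMAFF mice and from -0.84 to 0.07 in BTWT mice. Ang4 had the largest difference of this list, 7.06 (SE 1.64), and Itln1 one of 2.52 (SE 0.86). Such values weigh heavily in the means. The median difference of the list was 0.19, with 3 genes negative and 9 positive. Of 11 colonic epithelial markers, Vil1, Krt20, and Krt19 passed with higher values in BTΔMAFF mice, by 0.40, 0.32, and 0.22. The differences of the epithelial list were negative for 3 genes and positive for 8.
Hoxb13 and Hoxa13, homeobox genes of the most distal hindgut, belong to the position list because Insl5, Pyy, and Gcg are known to vary along the colon. Of the 6 measured genes of this list, these 2 passed the unadjusted threshold. The differences of the list were negative for 3 genes and positive for 3, with a median of 0.05. Hoxb13 had values of 0.38, 0.31, 0.22, and 0.36 in BTΔMAFF mice, against -0.22, -1.05, -0.25, and -0.55 in BTWT mice, with no overlap (difference 0.83, SE 0.18, adjusted p = 0.431). Hoxa13 had a difference of 0.77 (SE 0.24, adjusted p = 0.728), while Hoxd13, of the same family, had one of -0.49 (SE 0.45).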

How the data were processed

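Colonic epithelial cells were sorted from 8 mice and their RNA was amplified and hybridized to Affymetrix Mouse Genome arrays, 1 per mouse. The authors deposited log2 values centred per probe set on the median over mice, made with Affymetrix Expression Console (submitters' processing notes) and GeneSpring 12.5 (methods). Which background correction and scaling they used is not given in the sources used here.

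After 64 control probe sets were left out, BTΔMAFF minus BTWT was tested for 45037 probe sets by limma (version 3.58.1, R 4.3.3, no covariate), with Benjamini-Hochberg adjustment over all of them. The study's thresholds, more than 2-fold and p under 0.05, were applied to limma's unadjusted p, with the methods' unpaired test as an alternative. Probe sets with several genes (932) or none (9160) were not named. All 10 genes matched RefSeq by gene ID and had a promoter entry, 3 of them with 2 starts, of which the first listed was used. From each further list, up to 4 genes of smallest p and 8 set genes were eligible to be named, and for Chga, Gcg, and Tph1 the 5 genes of highest r. Snap25 of the granule list and Rbms1 are shown by the last rule. The members and the 13 further lists were chosen with earlier results of these data known. The procedure was tested on simulated data.

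Alternatives were quantile normalization, centring arrays on their medians, array weights, a robust prior, the replicate block, a filter on SD, the mean of all probe sets of a gene, the methods' test, and leaving out each array or the 2 arrays distant on the first principal component. The labels do not say whether mice shared cages. The p-values set a group difference against the spread between mice and treat each mouse as independent. The number of arrays limits the precision.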

Additional observations from a re-analysis of the deposited data

Results flagged for a closer look

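In 20 groups of 4 mice, 1 for each gene and group, 3 single mice lay far from the other 3 of their group by Dixon's criterion at its 95% level, which divides the gap to the nearest mouse by the group's range. Chance gives about 1 such mouse in 20 groups. Insl5 was 1.44 in BTΔMAFF replicate 2, against -0.205 in the nearest other BTΔMAFF mouse (0.932 of the range). Sct was -0.58 in BTWT replicate 2, against 0.17 in the nearest other BTWT mouse (0.842 of the range), on 1 of the 2 distant arrays. Cck was 0.431 in BTΔMAFF replicate 1, against 0.03 in the nearest (0.83 of the range, at the edge of the criterion).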

How the results depend on the processing

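No gene of the 10 passed an adjusted p of 0.05 under any of the 8 fits without 1 array or the 9 other alternatives, where the count at that threshold was 0. The count past 2-fold and an unadjusted p of 0.05 was 1 (Gcg), and between 0 and 1 without single arrays. It was 0 with the methods' unpaired Student t-test, where Gcg had an unadjusted p = 0.0502. Over all probe sets this count was 676 with array weights, which rested mainly on BTΔMAFF replicate 2 (weight 4.36) and BTWT replicate 3 (4.68), and between 230 and 333 without single arrays. The difference of Gcg was negative throughout, as were those of Tph1 and Sct. The others turned their sign. With array weights the log2 difference was -0.34 for Chga, -0.28 for Chgb, and 0.19 for Insl5, and leaving out the 2 distant arrays gave -0.0876 for Chgb. Without single arrays it ran from -0.0109 to 0.349 for Chga, -0.0701 to 0.287 for Chgb, -0.585 to 0.0448 for Pyy, -0.0236 to 0.138 for Cck, -0.30 to 0.0833 for Sst (also 0.0736), and -0.373 to 0.121 for Nts. The cause of these changes was not tested.

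Over all probe sets, the deviations of same-numbered mice from their group means had r = 0.39, -0.04, 0.03, and -0.27 for numbers 1 to 4. BTΔMAFF replicate 1 was most like BTWT replicate 1, whereas BTΔMAFF replicates 2, 3, and 4 were most like BTWT mice of other numbers. Whether same-numbered mice shared a cage, a day, or a batch cannot be told from these values. With the replicate block the Gcg difference was -1.10 (unadjusted p = 0.00442, adjusted p = 0.48), and the count at an adjusted p of 0.05 was 0.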
